A study of Mus musculus with 12 samples.

Results

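The genes described here encode the translation factors and the aminoacyl-tRNA synthetases of mouse liver, apart from 1 gene matched by symbol only. Members were the array spots annotated with exactly 1 gene symbol beginning Eif or Eef and a digit, or made of 1 letter followed by ars (such as Aars or Kars), with a background-corrected intensity above 0 in both dyes on all 12 arrays. The symbols matched 155 spots of 68 genes, and 118 spots of 59 genes met the intensity condition, among 11749 spots that met it and 23040 spots in all. One of the 59 genes, Eif2c5, is an Argonaute symbol that meets the naming rule but is no translation factor, and it stood at 0.22, -0.25 and 0.05 (log2 of bulaquine over vehicle) at 6 h, 12 h and 24 h. The rule used symbols and intensities and no drug ratio of a member, but members were chosen with earlier results of these data known. The symbols rest on an order of print blocks that was inferred from the data. The 37 spots left out stood at 0 on at least 1 array, 29 of them on 1 to 3 arrays. They include every spot of 9 genes, namely Cars, Gars, Lars, Eef1a2, Eif1ad, Eif2ak3, Eif3j1, Eif4e and Eif6, so the cap-binding protein itself and the eIF2 alpha kinase of the endoplasmic reticulum were not analysed here.

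Livers of mice given bulaquine, an antimalarial 8-aminoquinoline and pro-drug of primaquine, were compared with livers of vehicle-treated mice under sample titles that speak of hepatotoxicity. There were 3 groups of 4 two-colour arrays, taken 6 h, 12 h and 24 h after the drug, and on each array the labelled cDNA of a treated liver competed with that of a vehicle liver. The drug was in Cy5 on arrays F1 and F2 of each time point and in Cy3 on arrays R1 and R2. Strain, sex, age, dose and route, and the time at which vehicle animals were taken, are not given in the sources used here, nor is whether arrays share RNA, so the spread behind each p-value is that of arrays and may be technical.

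Protein synthesis starts when initiation factors (eIFs) bring the initiator tRNA, the small ribosomal subunit and the capped mRNA together. Elongation factors (eEFs) then deliver charged tRNAs and move the ribosome along, and the synthetases charge each tRNA with its amino acid. Phosphorylation of eIF2 under stress blocks its exchange factor eIF2B, lowers initiation in general and raises translation of the transcription factor ATF4, whose targets include several synthetase genes. The liver, which secretes most plasma proteins, expresses this machinery at high levels.

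ATF4 with a C/EBP partner binds a composite element that can be written TGATGNAA. To show which members hold these letters, RefSeq promoter windows of assembly GRCm38.p6 were searched on both strands for this motif alone. Each window ran from 250 bases before to 50 after an annotated start. The windows found 44 of the 59 member genes by symbol. Of their 58 windows 5 (8.62%) held a match, beside 3.97% of all 32851 windows. Per gene these were 5 of 44, among them 3 of the 6 synthetase genes that have a window, namely Aars, Iars and Yars. The share of all genes with a match was not computed, so the counts per gene have no background beside them. The matches of Aars are not printed. Matches of 4 genes stand below with 10 bases on each side, on the strand of the gene, with the match in capitals. A match is a run of letters and shows no binding.
Iars, chr13:49682127-49682154, plus strand, downstream of the start: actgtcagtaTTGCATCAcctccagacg
Yars, chr4:129189896-129189923, plus strand, downstream of the start: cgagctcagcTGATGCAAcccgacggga
Eef2k, chr7:120851095-120851122, plus strand, upstream: tttctgcttgTTTCATCAagctcagctt
Eif2s3x, chrX:94212730-94212757, minus strand, upstream: tcgccatcatTTTCATCAggtctatgcc

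Values below are log2 ratios of bulaquine over vehicle with standard errors (SE) from limma. Calls use a Benjamini-Hochberg adjusted p under 0.05, over all 11749 tested spots unless stated. Values per array are given with each spot's dye effect, estimated over the 12 arrays, taken out. The names depend on how the 48 print blocks are numbered, which was inferred from the data and is not stated in the files. As a check on the members' names, the 14 spots of Eef1a1, the most abundant elongation factor, had a median brightness at the 97.0th percentile in that order. Under the deposited order 10 spots bore the name, at a median of the 66.3rd percentile. The gain is not general, since all members stood at the 55.0th percentile in the inferred order and the 53.5th in the deposited one. In the tissue check, 5 of 17 hepatocyte markers were measured, among them transthyretin (Ttr) at the 97.8th and apolipoprotein A1 (Apoa1) at the 99.1st brightness percentile. The dimmest of the 5, Pck1, was at the 90.2nd. Spots of other cell types ran from dim, as a Col1a2 spot at the 10.4th, to about as bright. A Pecam1 spot stood at the 93.7th and Mpo at the 89.1st, so brightness alone did not set hepatocyte markers apart. The median log2 ratios of the 5 were 0.04, 0.08 and -0.07 at the 3 times, with Apoa1 at -2.20 (SE 1.15) at 12 h. The hepatocyte marker Fga, fibrinogen alpha, was called higher at 6 h and 12 h. Of 12 erythrocyte markers only Car2 was measured, at -0.82, 0.22 and 1.05 (lowest adjusted p = 0.311 by limma), and bile duct markers had 0 measured spots.

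The values of the translation genes centred near those of all tested spots at every time. Loess normalization brings the bulk of spots on each array to a ratio near 0. A shift shared by most spots would therefore not be seen, and levels are relative to the average spot. At 6 h 0 of 118 member spots were called, where 0.102% of all tested spots were. At 12 h the count was again 0 of 118, beside 0.46% of all spots. At 24 h it was 0 of 118, beside 0.477%. At an unadjusted p under 0.05 there were 6, 7 and 12 member spots (5.08%, 5.93% and 10.2%), which is below the 6.37%, 8.6% and 13.1% of all spots. Member spots above 0 numbered 66, 63 and 71 (55.9%, 53.4% and 60.2%), where 49.9%, 47.8% and 50.9% of all spots were. Above 0 on all 4 arrays were 8, 12 and 17 members (6.78%, 10.2% and 14.4%), beside 9.35%, 9.6% and 10.5% of all spots. Below 0 on all 4 were 9, 9 and 8 members (7.63%, 7.63% and 6.78%), beside 8.67%, 9.13% and 12.1%. The members' median log2 ratio was 0.02 at 6 h, 0.02 at 12 h and 0.06 at 24 h, and that of all tested spots 0.00, -0.01 and 0.01. Since whole liver was assayed, a change in the number of cells of a type and a change in RNA per cell cannot be told apart.

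The bounds show what size of change, relative to the bulk of spots, these arrays leave room for. A member's 95% interval lay wholly between -1 and 1, meaning less than a 2-fold change either way, for 83, 88 and 86 of 118 spots at the 3 times (70.3%, 74.6% and 72.9%). The same held for 68.4%, 67.2% and 67.1% of all spots. Precision followed brightness, with a median SE of 0.40 in the dimmest 39 member spots, 0.20 in the middle 39 and 0.14 in the brightest 40. For the remaining members a 2-fold change was not excluded by the interval, so the count of 0 does not show that their levels were equal.

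**Figure D1:**
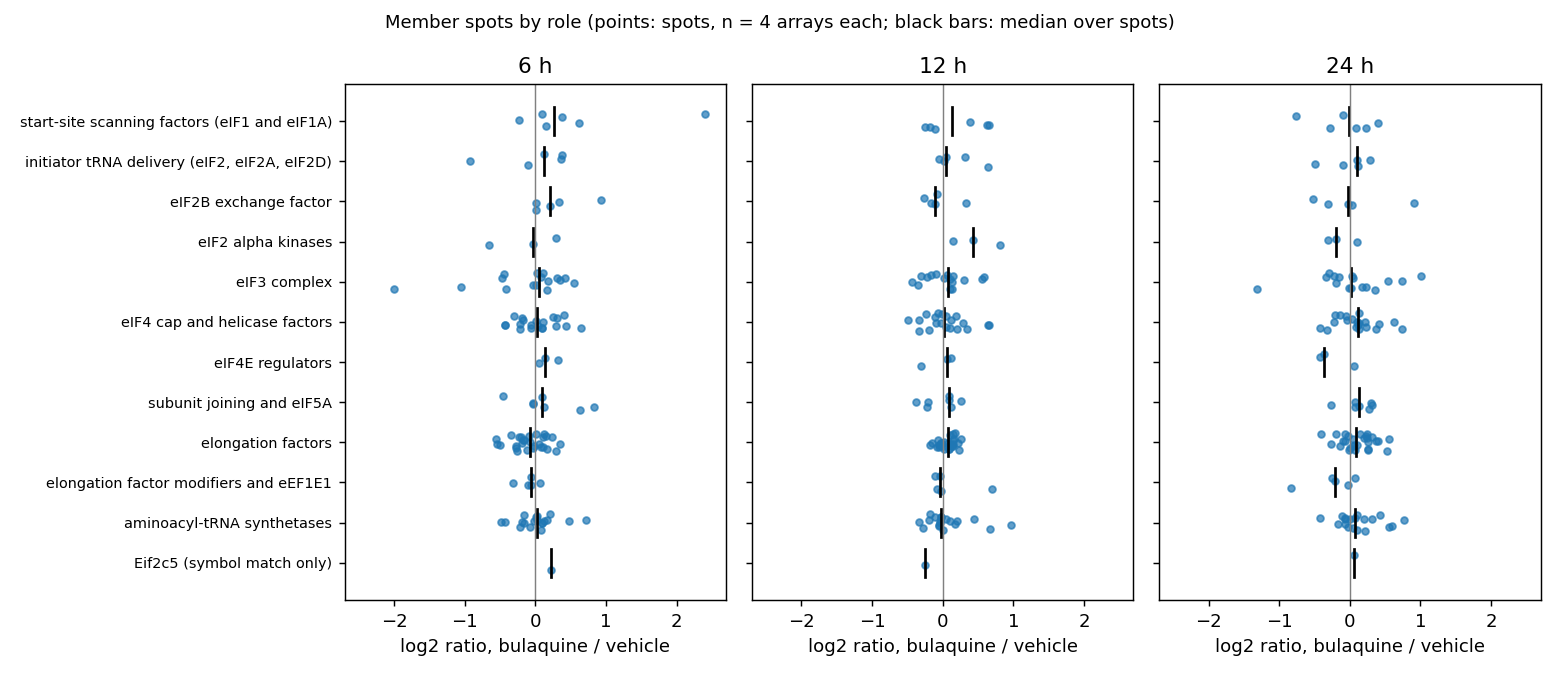
Log2 ratio of bulaquine over vehicle (x axis) for the 118 member spots at 6 h, 12 h and 24 h, arranged by role in translation (y axis). Each point is 1 spot estimated from 4 arrays, and black bars are medians over the spots of a role. The medians run from -0.36 (eIF4E regulators at 24 h, 3 spots) to 0.43 (eIF2 alpha kinases at 12 h, 3 spots). The few points beyond 1 or -1 belong to Eif1ax, Eif3a, Eif3b and Eif3f.

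Among start-site scanning factors, which help the small subunit find the start codon, Eif1b gave the lowest value of its group at 24 h. Its log2 ratios on arrays F1, F2, R1 and R2 were -0.63, -0.84, -0.63 and -0.94. All 4 arrays were low and close together, and the estimate was -0.76 (SE 0.17, 0.59 times the vehicle level, adjusted p = 0.117 by limma). When no background was subtracted it came to -0.21, and under normexp, a model-based correction, to -0.25. The paralogous genes Eif1a and Eif1ax, which encode eIF1A and may share probe signal, did not share one sign at 24 h. The 3 Eif1a spots ran from -0.10 to 0.23, and the 2 Eif1ax spots stood at -0.29 and 0.40. The dimmest member spot, an Eif1ax spot at the 0.4th brightness percentile, read -0.03, 8.86, 3.0 and -2.24 on the 6 h arrays. These values disagree with one another in sign, and the SE of their mean of 2.40 was 1.63. Without array F2 the estimate came to -0.02.

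For delivery of the initiator tRNA, the measured spots of eIF2 were Eif2s2 (beta subunit) and the gamma subunit copies Eif2s3x and Eif2s3y of the sex chromosomes. Eif2s2 stood at -0.10, 0.02 and 0.12 at the 3 times and Eif2s3x at 0.12, -0.06 and 0.10, each within 1 SE of 0. Eif2s3y, whose sequence is close to that of Eif2s3x, had 0.37, 0.05 and -0.49, with an SE of 0.32.

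The 5 genes of eIF2B, which reloads eIF2 with GTP, had 1 member spot each. All 5 were at or above 0 at 6 h, 1 was above 0 at 12 h and 2 at 24 h. Eif2b4, the delta subunit, read 0.33, 0.80, 1.56 and 0.95 on the 24 h arrays. These are all above 0 but spread over a wide range, and the estimate was 0.91 (SE 0.36, adjusted p = 0.328 by limma). Eif2b3, the gamma subunit and a bright spot at the 94.3rd percentile, stood at -0.31 at 24 h (adjusted p = 0.214), so the subunits of this complex did not share a sign.

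Of the eIF2 alpha kinases, Eif2ak1 (the heme-regulated kinase) and Eif2ak4 (GCN2, which senses uncharged tRNA) were measured. Eif2ak1 read 0.60, 0.07, 0.33 and 0.16 on the 6 h arrays, with an estimate of 0.29 (SE 0.14, adjusted p = 0.799 by limma), and stood at 0.14 and 0.10 later. The 2 Eif2ak4 spots were at -0.66 and -0.04 at 6 h, 0.81 and 0.43 at 12 h, and -0.31 and -0.20 at 24 h. They share a sign at each time, but they lie at the 1.7th and 13.0th brightness percentile. Their array values overlap 0, the dimmer spot reading 0.59, 0.35, -0.33 and 2.64 at 12 h. Averaged over both spots, Eif2ak4 differed from 6 h to 12 h by 0.96 (SE 0.43, adjusted p = 0.745 by limma over genes).

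eIF3 is the large scaffold that holds the small subunit and the mRNA, and its 16 spots of 10 genes held the lowest value of 6 h among spots of 1 sign on all 4 arrays. Eif3f, a subunit of its core, read -0.40, -1.0, -0.85 and -1.94 on arrays F1, F2, R1 and R2. All 4 arrays were below 0, R2 the furthest, and the estimate was -1.05 (SE 0.23, 0.484 times the vehicle level, adjusted p = 0.267 by limma). The spot lies at the 28.1st brightness percentile. It came to -0.29 when no background was subtracted and to -0.13 under normexp. At 12 h and 24 h Eif3f stood at -0.22 and -0.23. The tests of the difference from 6 h gave 0.83 and 0.82 (adjusted p = 0.689 and 0.466 by limma).

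The other eIF3 subunits lay on both sides of 0 at 6 h, with 10 of the 16 spots above it. Eif3e, Eif3h, Eif3m and Eif3c stood between 0.02 and 0.54. Below 0, beside Eif3f and Eif3b, were Eif3k at -0.44, 1 of 2 Eif3l spots at -0.42, 1 of 5 Eif3a spots at -0.48 and 1 of 2 Eif3i spots at -0.04. Eif3b read 0.12, -0.35, -0.25 and -7.55, so its mean of -2.01 was set by array R2, the other 3 lying near 0. Without R2 the estimate came to 0.07. Eif3k read 1.40, 0.10, 0.20 and 0.63 at 12 h, above 0 on all 4 arrays (estimate 0.58, SE 0.34, adjusted p = 0.648 by limma). At 24 h Eif3l spot 21192 read 0.90, 0.93, 0.22 and 0.93, and its estimate was 0.74 (SE 0.37, adjusted p = 0.443). The further Eif3l spot stood at 0.01. The 2 Eif3i spots were at 0.54 and 0.17 at 24 h, and 5 spots of Eif3a ran from -1.31 to 1.01, with 2 of them above 0.

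The eIF4 factors bind the cap and unwind the mRNA, and they held the member with the lowest adjusted p of the set. Spot 10002 of Eif4g3, a scaffold of the eIF4G family, is brighter than 99.9% of tested spots. At 24 h it read 0.43, 0.54, 1.04 and 0.49 on arrays F1, F2, R1 and R2. All 4 arrays were high, and the estimate was 0.62 (SE 0.14, 1.54-fold, adjusted p = 0.1 by limma). It was called at 24 h without background correction (0.76, adjusted p = 0.00556), with loess by print block (0.69, adjusted p = 0.0203) and without the dimmest 30% of spots (0.62, adjusted p = 0.0425). With normexp it read 1.51 (adjusted p = 0.433). The fits without background correction and with normexp took in array spots without the intensity condition. Their adjusted p-values therefore cover a larger set of spots than the main fit, and that without the dimmest 30% covers a smaller one.

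The other spots of Eif4g3 did not give this value. Spot 6010 read -0.51, -0.56, -0.02 and -0.20 at 24 h, all below 0, with an estimate of -0.32 (SE 0.14, adjusted p = 0.359 by limma), and at 12 h it read -0.18, -0.01, -0.56 and -0.61. Spot 17238 stood at -0.03. Averaged over its 3 spots, the gene stood at 0.09 (SE 0.09) at 24 h, so the direction of Eif4g3 depends on the spot read.

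The helicase genes Eif4a1 and Eif4a2 are near-identical paralogs whose probes may share signal. All of their 5 spots were above 0 at 24 h and 4 of 5 at 12 h. The 3 Eif4a1 spots were at 0.12, 0.66 and 0.20 at 12 h and at 0.24, 0.37 and 0.10 at 24 h. At 6 h Eif4a1 spot 7044 read 0.97, 0.43, 0.12 and 0.21 (estimate 0.43, SE 0.20, adjusted p = 0.795 by limma). Spot 3842 of Eif4a1 read 1.75, 0.37, 0.39 and 0.13 at 12 h, where array F1 stands apart. Averaged over spots, Eif4a1 was 0.33 at 12 h (SE 0.14, adjusted p = 0.569 by limma over genes). Eif4a2 was 0.27 at 6 h (SE 0.10, adjusted p = 0.678), -0.07 at 12 h and 0.27 at 24 h. Its 2 spots differed at 12 h. Spot 18392 read -0.25, -0.44, -0.18 and -0.45, below 0 on all 4 arrays (estimate -0.33, SE 0.19, adjusted p = 0.649). Spot 21053 stood at 0.19 at 12 h, and at 6 h it read 0.31, 0.28, 0.39 and 0.03.

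The helicase cofactor Eif4h was split, with one spot at -0.49 and the other at 0.64 at 12 h. The lower spot read -0.44, -0.34, -0.16 and -1.02, with array R2 the furthest from 0 (adjusted p = 0.626). For the cofactor Eif4b, 3 of 4 spots were above 0 at 24 h, the highest, spot 18833, reading 0.34, 0.72, 1.26 and 0.62 (estimate 0.74, SE 0.48, adjusted p = 0.572 by limma). The 5 spots of Eif4g2, which serves initiation without the cap-binding protein, ran from -0.20 to 0.12 at 24 h, and their mean per array lay between -0.07 and 0.03. Among regulators of eIF4E, Eif4ebp1, the binding protein released by mTOR, stood at 0.13, 0.11 and 0.05. Eif4enif1, the transporter of eIF4E, stood below 0 in both spots at 24 h. The nearer of them read -0.64, -0.34, -0.07 and -0.39, and its estimate was -0.36 (SE 0.11, adjusted p = 0.239).

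The subunit joining factors Eif5 and Eif5b were described as 1 role with Eif5a and Eif5a2. Of their 7 spots, 4 were above 0 at 6 h and at 12 h, and 6 at 24 h. At 6 h they ran from -0.46 to 0.83, the highest of the 3 Eif5b spots standing at 0.63 (SE 0.40). The lowest adjusted p among the 7 spots was 0.799 at 6 h, 0.708 at 12 h and 0.381 at 24 h by limma. Eif5a, the hypusine-bearing factor that relieves stalled ribosomes, read -0.31, -0.05, -0.98 and -0.51 on the 6 h arrays (estimate -0.46, SE 0.25, adjusted p = 0.808 by limma). It stood at 0.32 at 24 h. Its close paralog Eif5a2 stood at 0.83 at 6 h (SE 0.41), so the paralogs had opposite signs there.

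**Figure D2:**
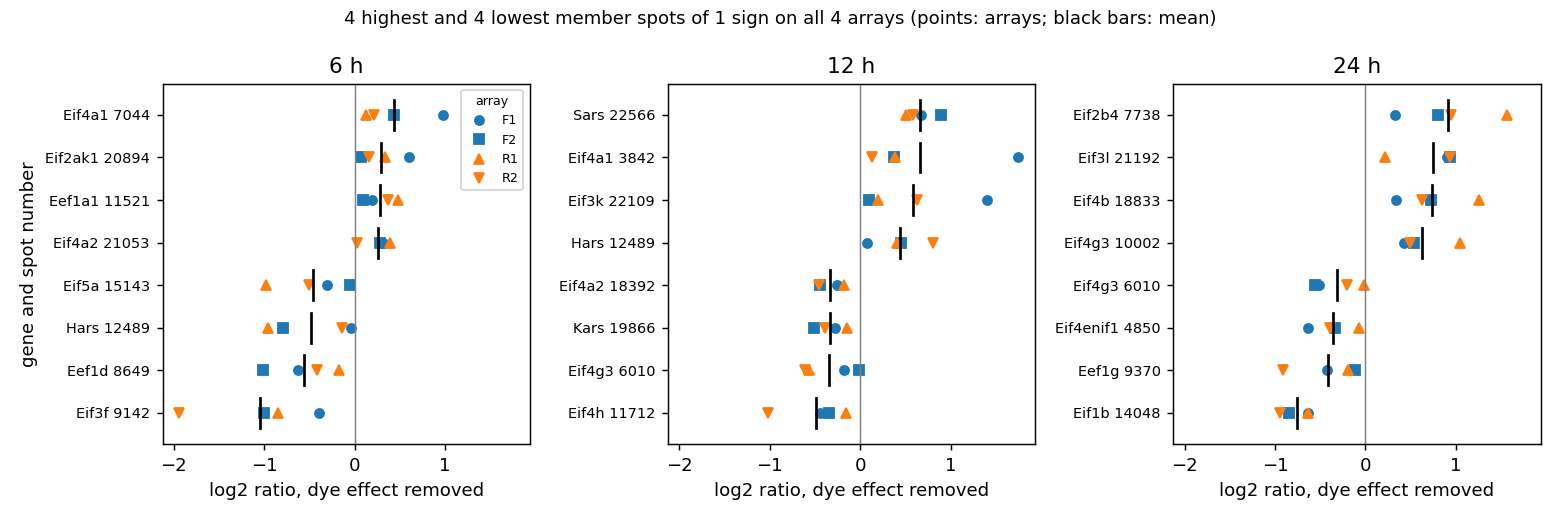
Log2 ratio with the dye effect removed (x axis) on arrays F1, F2, R1 and R2 for the 4 highest and 4 lowest member spots (y axis, gene and spot number) of 1 sign on all 4 arrays, at 6 h, 12 h and 24 h. Points are arrays and black bars their mean. Array R2 is the lowest point of Eif3f at 6 h, array F1 the highest of Eif4a1 spot 3842 at 12 h, and the 4 points of Eif1b at 24 h lie between -0.94 and -0.63.

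Elongation factors were the most heavily spotted role, with 28 spots of 5 genes. Eef1a1, which carries charged tRNAs to the ribosome, had 14 spots, of which 8 were above 0 at 6 h, 10 at 12 h and 14 at 24 h. The 24 h values ran from 0.05 to 0.55 with a median of 0.25. Averaged over spots, the array means at 24 h were 0.44, 0.31, 0.00 and 0.40 on F1, F2, R1 and R2. Arrays F1, F2 and R2 were high and R1 was not. The gene as a whole stood at 0.29 (SE 0.11, unadjusted p = 0.0237, adjusted p = 0.316 by limma over 9611 genes and unnamed spots).

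The 14 spots share the same 4 hybridizations, so their common sign is no set of 14 replicates. The difference from 6 h to 24 h was 0.27 (SE 0.15, adjusted p = 0.626 by limma), and that from 12 h to 24 h 0.21 (SE 0.15, adjusted p = 0.68). The clearest spot, 13973, read 0.74, 0.74, 0.11 and 0.60 at 24 h with an estimate of 0.55 (adjusted p = 0.175). With normexp it was called, at 0.75 (adjusted p = 0.0259, over the larger set of spots of that fit). Eef1a1 has many processed pseudogenes and a near-identical paralog, Eef1a2, and these probes may read more than 1 of them.

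The guanine exchange partners of eEF1A did not follow Eef1a1. Eef1g had 6 of 6 spots below 0 at 6 h, with array means of 0.01, -0.31, -0.32 and -0.23, and 3 of 6 above 0 at 12 h and at 24 h. Its average at 6 h was -0.21 (SE 0.14, adjusted p = 0.857 by limma over genes), and it ran from -0.297 to -0.11 over 23 alternatives. Spot 9370 of Eef1g read -0.42, -0.12, -0.19 and -0.91 at 24 h, below 0 on all 4 arrays (estimate -0.41, SE 0.19, adjusted p = 0.401). Eef1d read -0.63, -1.01, -0.17 and -0.42 at 6 h, all below 0, with an estimate of -0.56 (SE 0.22, adjusted p = 0.736), and stood at 0.15 and -0.02 afterwards. Eef1b2 stood at 0.15, 0.04 and 0.01 over its 2 spots.

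Eef2, the translocase, had 4 of 5 spots below 0 at 6 h and array means of 0.00, -0.09, -0.73 and -0.15. Array R1 was the low one, and the average of -0.24 (SE 0.14) became -0.06 without it. At 12 h and 24 h Eef2 stood at 0.03 and -0.11. Its kinase gene Eef2k, one of the genes with a motif match printed above, stood at -0.33, -0.04 and -0.25 with an SE of 0.83. At 6 h the 3 measured of 13 Kupffer cell and macrophage markers were also below 0 (median -0.67, range -0.84 to -0.50, lowest adjusted p = 0.693), and at 24 h all 3 were above 0 (median 0.27). Their part in the members' values was not tested.

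**Figure D3:**
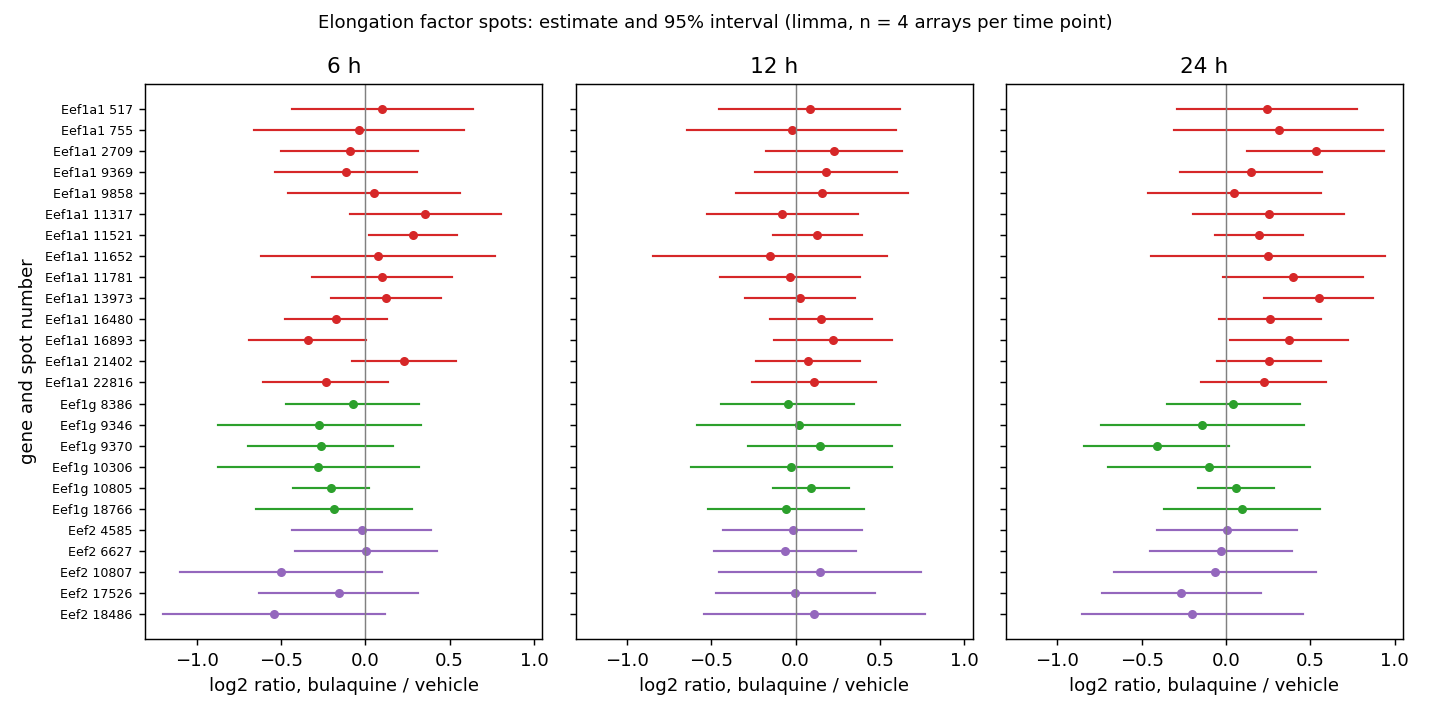
Log2 ratio of bulaquine over vehicle (x axis) with its 95% interval from limma for each spot of Eef1a1 (red, 14 spots), Eef1g (green, 6 spots) and Eef2 (purple, 5 spots) at 6 h, 12 h and 24 h, from 4 arrays per time point. The 14 Eef1a1 points lie above 0 at 24 h and the 6 Eef1g points below 0 at 6 h, and most intervals include 0.

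The 19 synthetase spots of 11 genes had medians of 0.02, -0.02 and 0.07 at the 3 times, with 11, 8 and 12 spots above 0. By array, their median ran from -0.08 to 0.15 at 6 h, from -0.16 to 0.14 at 12 h and from -0.01 to 0.12 at 24 h, so the arrays of a time point differed by more than the time points did. Aars, the alanine enzyme, had spots at 0.43 and -0.06 at 24 h. Iars, with 1 motif match printed above, had 3 spots from -0.42 to -0.03, and Yars, with 1 motif match, stood at 0.11. These 3 genes lie on both sides of 0.

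Hars, the histidine enzyme, was low at 6 h and high at 12 h. It read -0.04, -0.79, -0.96 and -0.14 on the 6 h arrays and 0.08, 0.45, 0.41 and 0.81 on the 12 h arrays, so the arrays of these times did not overlap. The estimates were -0.48 and 0.44 (SE 0.17 each, adjusted p = 0.692 and 0.56 by limma). The difference of 0.92 (SE 0.25) had the lowest adjusted p of any member between 6 h and 12 h, at 0.325.

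Sars, the serine enzyme, had both spots above 0 at all 3 times. Spot 22566 read 0.67, 0.89, 0.51 and 0.59 at 12 h (estimate 0.67, SE 0.43, adjusted p = 0.692 by limma), and its estimates at 6 h and 24 h were 0.71 and 0.76. The brighter Sars spot stood at 0.17, 0.05 and 0.01, so the size of the ratio depends on the spot. Spot 19866 of Kars, the lysine enzyme, read -0.28, -0.51, -0.15 and -0.39 at 12 h (estimate -0.33, SE 0.15, adjusted p = 0.58), and both Kars spots were above 0 at 24 h. Qars, the glutamine enzyme, stood at -0.28 at 12 h. Rars, the arginine enzyme, averaged 0.19, 0.16 and 0.19 over its 3 spots. These spots ran from 0.02 to 0.47 at 6 h, from 0.11 to 0.21 at 12 h and from -0.06 to 0.55 at 24 h.

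Differences between time points gave 0 called members in each of the 3 tests, beside 0.4% of all spots from 6 h to 12 h, 0.179% from 12 h to 24 h and 0.187% from 6 h to 24 h. At an unadjusted p under 0.05 there were 10, 4 and 8 members (8.47%, 3.39% and 6.78%), beside 6.57%, 8.92% and 9.62% of all spots. Most extreme differences belonged to dim spots, with Eif3b at the 10.4th brightness percentile, while the Eif3c spot was at the 37.4th. From 6 h to 12 h Eif3b differed by 2.57 (SE 1.61), Eif2a by 1.57 (SE 1.02), Eif2ak4 spot 8894 by 1.46 (SE 0.85), Eif1ax by -1.74 (SE 2.30), Eif2b2 by -1.20 (SE 0.79) and Eif3c by -0.85 (SE 0.55). The last 3 changed sign under an alternative, Eif1ax to 0.681 without 6 h array F2, and Eif2b2 to 0.132 and Eif3c to 0.253 with normexp. Without 6 h array R2 the Eif3b difference came to 0.489. With 1 array left out, Eif2b2 ran from -1.624 to -0.319 and Eif3c from -1.271 to -0.338.

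From 12 h to 24 h the outer values were 1.44 and -1.21 for different spots of Eif3a, 0.97 for Eif4b, 0.74 for Eif4a2 (SE 0.27), -1.12 for Eif2ak4 and -1.53 for Eef1akmt1, which encodes a methyltransferase of eEF1A. The Eif3a value of -1.21 became 0.179 without background correction and ran from -2.063 to -0.157 with 1 array left out. The Eef1akmt1 spot had an SE of 0.56 and an adjusted p of 0.467 by limma, the lowest of any member in this test beside that of the Eif4a2 spot. From 6 h to 24 h they were 2.36 for Eif3b, 1.21 for Eif2a, 1.17 for Eif4b, -2.69 for Eif1ax, -1.46 for Eif2b2 and -0.85 for Eif2s3y. Of these, Eif2b2 came to 0.041 with normexp and Eif3b to 0.285 without 6 h array R2. The spot with the lowest adjusted p there was Eif4g3 spot 10002, which differed by 0.94 (adjusted p = 0.135). It was called without background correction (1.01, adjusted p = 0.0181, over the larger set of spots of that fit).

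Spots of the same gene agreed only weakly. Over the 12 arrays, the median correlation of drug ratios between 2 spots of a gene was 0.15 over 174 pairs. It was 0.26 over the 91 pairs of Eef1a1 and 0.07 over the other 83, beside 0.00 over 6729 pairs from different genes. Over the 68 pairs that also share their accession the median was -0.03. These are descriptions, since all spots share the arrays. Of the 26 member genes with several spots, 11, 8 and 13 had all spots of 1 sign at 6 h, 12 h and 24 h, and Eif2ak4 and Sars did so at every time. The share over all genes with several spots was not computed, so these counts have no background beside them and are not read further. When spots of a gene were averaged before the fit, 0 of 59 member genes were called at any time (0.0416%, 0.562% and 0.635% of all genes and unnamed spots) or in any difference (0.437% from 6 h to 12 h, 0.239% from 12 h to 24 h and 0.104% from 6 h to 24 h).

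The dye effect, which the rule did not use, was called for many members. The dye effect of a spot is its mean log2 ratio of Cy5 over Cy3 over the 12 arrays. It was called for 54 of 118 member spots, 45.8% beside 28.9% of all spots. Of these, 42 were brighter in Cy3 (35.6%, beside 13.5% of all spots) and 12 in Cy5 (10.2%, beside 15.5%). Of those 42, elongation factors held 23, among their 28 spots. All 14 Eef1a1 spots were (median -1.06), as were 5 of 6 of Eef1g, 3 of 5 of Eef2 (median -1.65) and, among initiation factors, 3 of 4 of Eif4b. Spots of a gene share their target, so these are few independent genes.

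Synthetases did not show the pattern, with 3 spots brighter in Cy3 and 5 in Cy5. Among tested spots at least as bright as the dimmest of the 40 brightest members, 18.8% were called brighter in Cy3. Before the dye effect was removed, the mean ratio of drug over vehicle of Eef1a1 at 6 h was -1.04 and -0.95 on F1 and F2 but 0.97 and 1.11 on R1 and R2. The removed dye effect is thus several times larger than the 24 h estimate of Eef1a1.

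**Figure D4:**
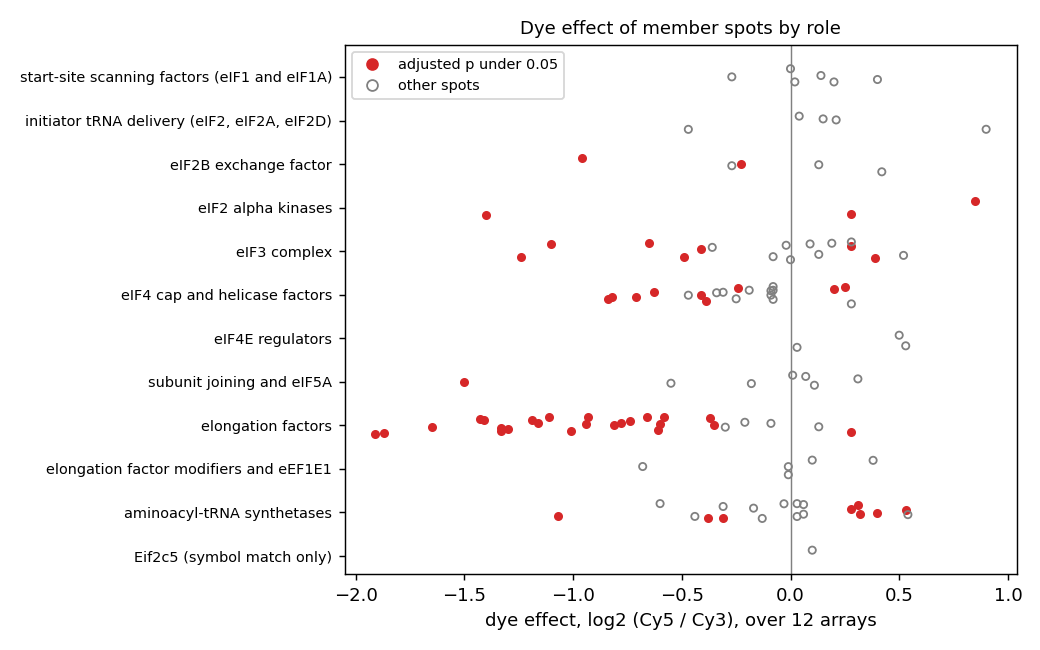
Dye effect of the 118 member spots, as log2 of Cy5 over Cy3 over 12 arrays (x axis), by role in translation (y axis). Filled red points have an adjusted p under 0.05 by limma and open points do not. The elongation factor spots reach furthest below 0, with 23 of 28 called brighter in Cy3, while synthetase spots lie on both sides.

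Other genes around translation were set beside the members as lists. Of 8 measured genes among further synthetases and their partners, 0 of 10 spots were called at any time, with medians of 0.02, 0.15 and 0.12. Eprs ran from -1.22 at 6 h to 2.11 at 24 h (SE 1.41 each, adjusted p = 0.952 and 0.582 by limma), on a dim spot at the 3.42nd brightness percentile. The 24 further translation factor genes had 0 of 40 spots called and medians of 0.03, 0.00 and -0.07. At 24 h the lowest was a spot of the release factor partner Gspt1 at -1.13 (adjusted p = 0.198) and the highest a spot of the recycling factor Abce1 at 0.72. The other Gspt1 spots stood at 0.43 (adjusted p = 0.187), -0.33 and -0.33, and the other Abce1 spots at -0.08 and -0.07, so neither gene had 1 sign.

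Targets of the eIF2 stress response were measured for 15 genes on 23 spots, with 13, 13 and 11 spots above 0. Only Cth, which makes cysteine, was called, at 24 h (0.67, adjusted p = 0.0149 by limma). That is 1 of 23 spots, beside 0.477% of all tested spots, in a list chosen with earlier results of these data known. Ddit4, an inhibitor of mTOR, stood at 1.73 at 6 h (SE 0.38, adjusted p = 0.273 by limma). At 12 h Ppp1r15a, the eIF2 phosphatase subunit, stood at -1.18 (SE 0.31, adjusted p = 0.307). The asparagine synthetase gene Asns stood at -0.72 at 12 h (SE 0.32, adjusted p = 0.58). The spots of Ddit4, Ppp1r15a and Asns are dim, at the 6.92nd, 12.6th and 12.8th brightness percentile. The mTOR and cap kinase list, measured for 22 genes on 29 spots, had 0 called and medians of -0.04, -0.04 and -0.11.

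The remaining cell type markers were called at no time. Endothelial markers had medians of 0.18, -0.05 and -0.07 over 4 spots, stellate and fibroblast markers -0.31, 0.13 and 0.03 over 9 spots, neutrophil markers -0.01, 0.07 and -0.19 over 4 spots, and lymphocyte markers -0.01, -0.17 and -0.11 over 2 spots.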

How the data were processed

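Scanning used ImageQuant 5.0 and spot quantification ArrayVision 8.0, per the design text of the series, and background-corrected data were LOWESS normalized and turned into log ratios in Avadis 4. The files as deposited by the authors held foreground, background and corrected intensity and ArrayVision's signal-to-noise score per dye. The authors' deposited log2 ratios (Cy5 over Cy3) correlated with those recomputed here at r of 0.998 to 1.000 across spots. The median signal-to-noise score deposited ran from 0.761 to 1.42 in Cy3 and 0.467 to 1.34 in Cy5 per array, and 9.66% to 24.5% of spots stood at 0. Arrays carry no counts, so their number limits the precision.

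Corrected intensities at 0 were left out, log2 ratios were loess-normalized array by array, and limma 3.58.1 (R 4.3.3) was run on the spots measured on 12 arrays. The model held a term for each time point, signed by the dye of the drug, and a dye effect per spot, with 8 residual degrees of freedom (9.78 after eBayes). Scripts were tested on simulated data. Print blocks, 48 of 480 spots, were moved between row-wise and column-wise order of a 12 by 4 grid to pair spots with 15114 1-symbol annotations, while 206 spots list several symbols and 7720 none. All 118 members' symbols were found in the RefSeq gene table of GRCm38.p6.

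The members and lists were chosen with earlier results of these data known. Spots were named by a rule, at each time point the 4 highest and 4 lowest among those of 1 sign on all 4 arrays, and for differences the 3 highest and 3 lowest. That rule did not say which ratios to use. It was first applied to ratios as measured (3 spots above and 3 below 0 at 6 h, 5 and 6 at 12 h, 9 and 5 at 24 h), which the dye effect dominated. After those results were seen it was applied to ratios with the dye effect removed (8 and 9, 12 and 9, 17 and 8), which changed the spots named. The dye comparison, the promoter motif and the averaging of a gene's spots were also chosen after the data were seen, and a scan for pyrimidine tracts at start sites was looked at and left out. The array values of Eif3b and of the dimmest Eif1ax spot at 6 h, of Eif2ak4 at 12 h and of Eef1a1 spot 13973 at 24 h fall outside the rule and were added after they were seen. Other spots are named to show where spots of a gene or subunits of a complex differ. Protein sequences were not used here.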

Additional observations from a re-analysis of the deposited data

Results flagged for a closer look

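The 4 array values of a time point were checked in 46 groups, namely the spots given array by array in the text or the plot, the members' median and the spot means of Eef1a1, Eef1g, Eef2, Eif3a and Eif4g2. In 3 of them 1 array lay far from the others. Chance alone does so in about 1 of 20 groups fixed in advance. Most groups here were picked by their array values, and that of Eif3b was added after they were seen, so this rate does not apply to them. At 6 h, the Eif3b spot read -7.55 on array R2 and -0.35 to 0.12 on the others. At 12 h, spot 3842 of Eif4a1 read 1.75 on array F1 and 0.13 to 0.39 on the others. At 24 h, spot 21192 of Eif3l read 0.22 on array R1 and 0.90 to 0.93 on the others.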

How the results depend on the processing

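The count of called members was 0 in every comparison and alternative except at 24 h, where it was 1 with normexp (spot 13973 of Eef1a1), and 1 without background correction, with loess by print block and without the dimmest 30% (Eif4g3 spot 10002 each), and from 6 h to 24 h, where it was 1 without background correction (Eif4g3). The fits with normexp and without background correction took in array spots without the intensity condition, so more than the background step differs from the main fit. The members' median at 6 h was -0.016 with normexp and ran from -0.002 to 0.061 (without 6 h F1) with 1 array left out. Over 24 alternatives it ran from -0.038 to 0.079 at 12 h and from 0.023 to 0.079 at 24 h. At 6 h the dimmest Eif1ax spot came to -0.024 without F2 (range with 1 array left out -0.024 to 4.139) and Eif3b to 0.067 without R2 (range -2.807 to 0.067). Differences that changed sign, none called, were Eif2b2 at 0.132 (12 h less 6 h) and 0.041 (24 h less 6 h) and Eif3c at 0.253 (12 h less 6 h) with normexp, Eif1ax at 0.681 (12 h less 6 h) without 6 h F2 (range with 1 array left out -3.482 to 0.681), and Eif3a spot 3381 at 0.179 (24 h less 12 h) without background correction (range with 1 array left out -2.063 to -0.157). With 1 array left out, Eif2b2 ran from -1.624 to -0.319 (12 h less 6 h) and from -1.812 to -0.578 (24 h less 6 h), and Eif3c from -1.271 to -0.338. The cause was not tested. The mean of the Eef1a1 spots at 24 h ran from 0.231 to 0.429 over 23 alternatives, with 12 to 14 of 14 spots above 0, that of Eef1g at 6 h from -0.297 to -0.11 and that of Eef2 at 6 h from -0.335 to -0.059. The Eif3f value ran from -1.29 to -0.13, and the Eif1b value from -0.83 to -0.21. Array labels did not pair arrays across times (r from -0.039 to 0.003 over spots), and with the replicate block 0 members were called in all 6 comparisons. Signal limits the dimmest 39 member spots, whose median SE of 0.402 compares with 0.136 in the brightest 40.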
